A study of Mus musculus with 6 samples.

Results

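The genes described here are 9 components of the transforming growth factor-β (TGF-β) pathway, taken by name: the ligand *Tgfb1*, the receptors *Tgfbr1* and *Tgfbr2*, the signal-carrying *Smad2*, *Smad3* and *Smad4*, the inhibitory *Smad7*, and the corepressors *Ski* and *Skil*. They are 9 of the 23183 genes listed, and all 9 were measured. RNA was sequenced from CD4+CD8+ double-positive (DP) thymocytes sorted from C57BL/6 mice aged 6 weeks, in 3 libraries from Nsrp1f/f mice (WT) and 3 from Nsrp1f/f CD4Cre mice (cKO). Both genotypes carried the floxed *Nsrp1* alleles, and only cKO mice carried Cre, expressed from *Cd4* enhancer and promoter elements so as to delete the gene from the late double-negative stage, just before the DP stage. *Nsrp1* encodes NSrp70, a nuclear speckle protein that takes part in alternative splicing. The WT mice carried no Cre, so an effect of Cre itself and that of the deletion cannot be told apart. The sources used here do not say whether libraries came from separate mice or from pools, so the p-values measure only the spread between these libraries.

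TGF-β binds the type II receptor TGFBR2, which activates the type I receptor TGFBR1. The activated receptor phosphorylates SMAD2 and SMAD3, which enter the nucleus with SMAD4 and act on target genes. SMAD7, itself induced by TGF-β, blocks the receptors, and SKI and SKIL (also called SnoN) hold SMAD complexes in a repressed state; in T cells the pathway is known for its part in tolerance and in the development of regulatory and CD8 lineage cells.

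Expression was given as FPKM, fragments per length of transcript relative to all mapped fragments of the library, summed over all isoforms of a gene, so that levels of different genes may be compared. The targeted gene, listed under its older symbol *Ccdc55*, stood at 20.2, 20.7 and 21.1 FPKM in WT and at 17.7, 15.8 and 15.0 FPKM in cKO, a log2 fold change of -0.34 (limma, adjusted p = 0.0068). The gene total was thus only partly lower, and which exons lie between the loxP sites was not analysed here. *Xist*, transcribed from the inactive X chromosome, lay at 69.8 to 72.0 FPKM in WT and at 4.07 to 5.44 FPKM in cKO, and 4 Y-linked genes were listed at 0 in every WT library, so that sex and genotype cannot be told apart in any comparison. The depth estimated from the smallest FPKM steps was 20700000 to 20850000 fragments in WT and 13100000 to 20700000 in cKO. Squared differences between WT libraries were 1.19 to 1.30 times those of counting noise, against 5.04 to 11.5 times between cKO libraries. WT values are therefore given without an SD, and each test was repeated on the mean of the WT libraries, entered as a single sample (called WT counted as 1 sample from here on).

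In NSrp70-cKO DP thymocytes *Ski*, *Tgfb1*, *Tgfbr2*, *Skil* and *Smad3* were lower than in WT, *Smad2* was higher, and *Tgfbr1* and *Smad4* did not pass the test. *Smad7* was at or near 0 in cKO. The test was limma on log2(FPKM + 1) with Benjamini-Hochberg adjustment at 0.05 over 10326 genes that reached 1 FPKM in at least 3 libraries. On that scale a difference understates the change of a gene of low level. *Smad7* passed this filter only through its WT libraries, so that a lower value in cKO was the one direction open to it, and it is left out of the counts read against other genes. Many genes differed between these libraries: limma called 65.5% of all genes tested, 35.8% as higher and 29.8% as lower in cKO. Of the 8 genes other than *Smad7*, which reached 1 FPKM in all 6 libraries, 5 were lower and 1 was higher, where 28.0% and 37.8% of all such genes were called (65.8% in either direction). Their median log2 fold change was -0.38, beside 0.071 over all genes that reached 1 FPKM in all 6 libraries. With WT counted as 1 sample, *Ski* alone of these 8 remained called, where 15.9% of all genes tested were, 7.21% as higher and 8.73% as lower. The libraries of the genotypes did not overlap for 6 of these 8 genes, 5 of them below WT and 1 above, where 72.5% of all genes tested did not overlap, 33.3% below and 39.2% above. A call together with a change of at least 1 on the log2 scale was made for 1 of the 8, *Ski*, where 4.71% of all genes tested were so lower and 3.88% so higher.

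**Figure D1:**
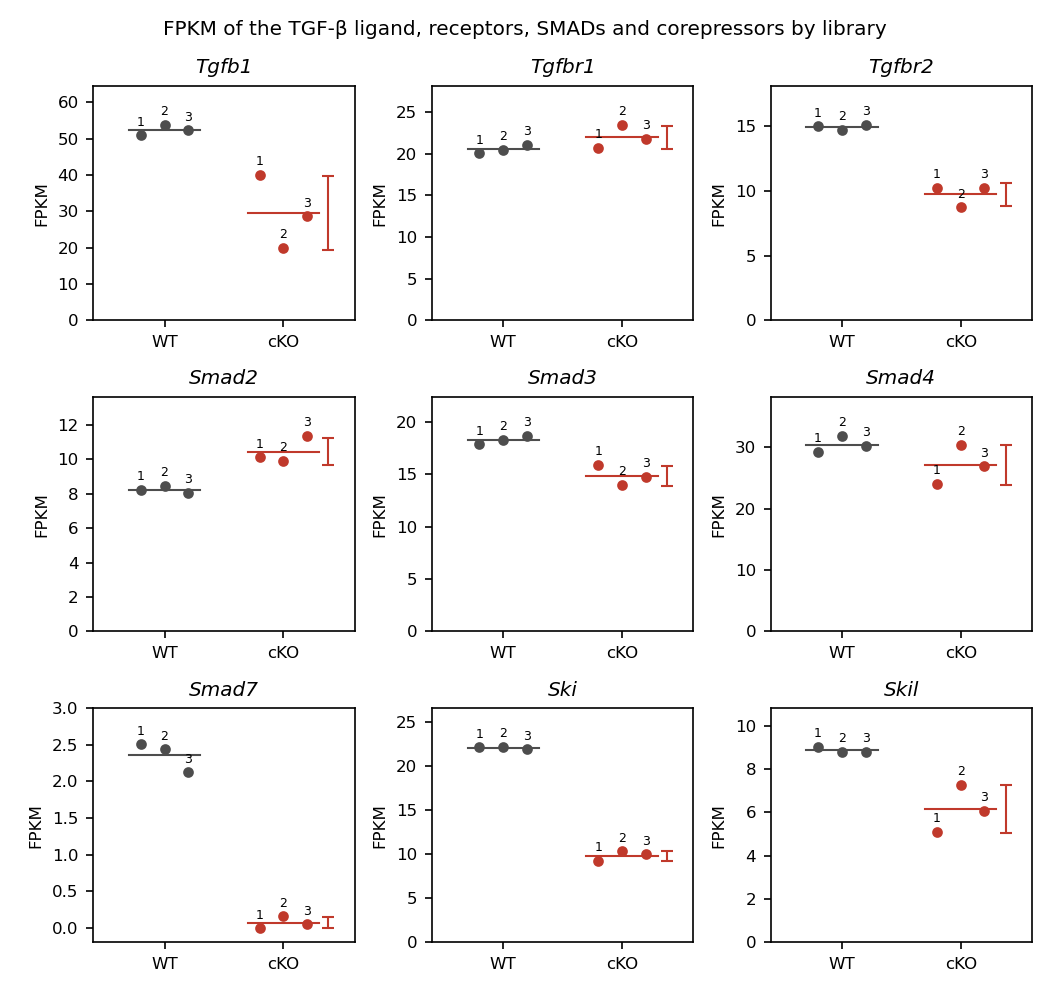
FPKM (vertical axes, linear, one scale per gene) of the 9 genes in 3 WT libraries (grey) and 3 cKO libraries (red). Points are libraries with their replicate number, horizontal lines are group means, and the red bar is the mean ± SD of the cKO libraries. The genotypes are apart in every panel but *Tgfbr1* and *Smad4*.

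By level, the order in WT was *Tgfb1* (mean 52.3 FPKM), *Smad4* (30.4), *Ski* (22.1), *Tgfbr1* (20.5), *Smad3* (18.3), *Tgfbr2* (14.9), *Skil* (8.87), *Smad2* (8.24) and *Smad7* (2.36 FPKM). The ranges of neighbours in this WT order did not overlap. In cKO the order of mean FPKM was *Tgfb1* (29.6), *Smad4* (27.1), *Tgfbr1* (22.0), *Smad3* (14.9), *Smad2* (10.5), *Ski* (9.85), *Tgfbr2* (9.74), *Skil* (6.15) and *Smad7* (0.0699 FPKM). Here the range of *Tgfb1* overlapped those of *Smad4* and *Tgfbr1*, and the ranges of *Smad2*, *Ski* and *Tgfbr2* overlapped each other. By mean level *Ski* moved from above *Tgfbr1*, *Smad3* and *Smad2* to below all of them, while *Smad7* was the lowest of the 9 genes in both genotypes. In cKO replicate 2, however, *Ski* (10.3 FPKM) was above *Smad2* (9.90 FPKM).

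The ligand gene *Tgfb1* (GRCm38 chr7:25687002-25705077, plus strand) stood at 51.0, 53.8 and 52.3 FPKM in WT and at 40.1, 20.0 and 28.6 FPKM in cKO. All 3 cKO libraries were below all 3 WT libraries, but they differed from each other by as much as 2.01-fold, the widest relative spread of any of these genes above 1 FPKM. The cKO mean was 29.6 ± 10.1 FPKM (SD, n = 3), and the log2 fold change was -0.86 (SE 0.22, limma adjusted p = 0.012). With WT counted as 1 sample the adjusted p was 0.12.

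The type II receptor gene *Tgfbr2*, which encodes the chain that binds the ligand first (chr9:116084293-116175360, minus strand), gave 15.0, 14.7 and 15.1 FPKM in WT and 10.3, 8.73 and 10.2 FPKM in cKO. The groups did not overlap, and the cKO mean was 9.74 ± 0.873 FPKM (SD, n = 3). The log2 fold change of *Tgfbr2* was -0.57 (SE 0.080, limma adjusted p = 0.00090), with an adjusted p of 0.065 when WT was counted as 1 sample. Corrected for GC content and length, it was -0.35 (limma adjusted p = 0.0094). The type I receptor gene *Tgfbr1*, which encodes the kinase that acts on SMADs (chr4:47353222-47414931, plus strand), gave 20.0, 20.5 and 21.1 FPKM in WT and 20.7, 23.4 and 21.7 FPKM in cKO. The groups overlapped in this gene. Its log2 fold change was 0.09 with a 95% interval from -0.07 to 0.25 (limma adjusted p = 0.26), an interval that does not reach the change of *Tgfbr2*.

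Both receptor genes are needed for a response to TGF-β, and their ratio within a library does not depend on a scaling factor of the library. The FPKM of *Tgfbr1* divided by that of *Tgfbr2* was 1.34, 1.39 and 1.40 in WT and 2.02, 2.68 and 2.13 in cKO. Every cKO library was above every WT library, and the mean rose from 1.37 to 2.28 ± 0.356 (SD, n = 3), a difference of 0.72 in the log2 ratio, or of 0.38 with GC content and length corrected for. The exact two-sided permutation p was 0.1, the smallest that 3 libraries against 3 can give, so this design cannot reach 0.05 for any ratio. Benjamini-Hochberg adjustment over the 4 ratios computed gave 0.1 for each.

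*Smad2* and *Smad3* encode the SMADs that the TGF-β receptor phosphorylates. They moved in opposite directions in the test as reported, but not under every alternative given below. *Smad2* (chromosome 18) stood at 8.24, 8.45 and 8.04 FPKM in WT and at 10.1, 9.90 and 11.4 FPKM in cKO. All cKO libraries were above all WT libraries, with a cKO mean of 10.5 ± 0.787 FPKM (SD, n = 3) and a log2 fold change of 0.31 (SE 0.074, limma adjusted p = 0.0089). With WT counted as 1 sample the adjusted p for *Smad2* was 0.22, and when every library was scaled to the same FPKM total its log2 fold change was -0.20.

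*Smad3* (chr9:63646767-63757994, minus strand) gave 17.9, 18.3 and 18.7 FPKM in WT and 15.9, 14.0 and 14.7 FPKM in cKO. The cKO libraries were again apart from WT, this time below, with a mean of 14.9 ± 0.953 FPKM (SD, n = 3). The log2 fold change of *Smad3* was -0.28 (SE 0.070, limma adjusted p = 0.010), and the call was lost without WT replicate 3 (adjusted p = 0.052) and with WT counted as 1 sample (0.24). After a correction of each library for GC content and transcript length, the log2 fold change of *Smad3* was 0.02 (limma adjusted p = 0.79).

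The ratio of *Smad3* to *Smad2* FPKM was 2.17, 2.17 and 2.32 in WT and 1.57, 1.42 and 1.30 in cKO. *Smad3* was the more abundant of the pair in every library, by less in each cKO library than in any WT library. The mean ratio went from 2.22 to 1.43 ± 0.137 (SD, n = 3), a difference of -0.64 in the log2 ratio (exact two-sided permutation p = 0.1), or of -0.42 with GC content and length corrected for.

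*Smad4*, the common partner of the phosphorylated SMADs (chromosome 18), stood at 29.3, 31.8 and 30.2 FPKM in WT and at 24.0, 30.4 and 26.9 FPKM in cKO. One cKO library lay within the WT range and the other 2 below it. The log2 fold change of *Smad4* was -0.17 with a 95% interval from -0.38 to 0.04 (limma adjusted p = 0.14). Without cKO replicate 2 it was -0.24 and passed the test (adjusted p = 0.015), and without cKO replicate 1 it was -0.084 (adjusted p = 0.34). A gene on the opposite strand, AC132418.2, overlaps *Smad4*, and whether the authors counted by strand is not given in the sources used here.

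*Smad7*, the inhibitory SMAD (chromosome 18), had the largest log2 difference of the 9 genes. Its level was 2.50, 2.44 and 2.13 FPKM in WT, and in cKO it was listed at 0 in replicate 1, at 0.157 FPKM in replicate 2 and at 0.0532 FPKM in replicate 3. At the estimated depth these stand for about 180 to 213 fragments in each WT library and for about 13.2 and 3.8 fragments in the cKO libraries above 0. The cKO mean was 0.0699 ± 0.0796 FPKM (SD, n = 3), 2.97% of the WT mean. With a pseudocount of 1, its log2 fold change was -1.64 (SE 0.10), and with a pseudocount of 0.1 it was -3.95. Since the filter let *Smad7* in through WT alone, its p is given from the fit with no filter on level, over every gene above 0 in any library (limma adjusted p = 0.00028). *Smad7* lay at the low end of the genes tested even in WT. Its cKO values rest on about 13.2 fragments at most in any library, so the level within cKO is only loosely fixed.

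Set against the SMADs whose activation it opposes, *Smad7* amounted to 9.58%, 9.11% and 7.96% of the summed FPKM of *Smad2* and *Smad3* in WT, and to 0%, 0.655% and 0.204% in cKO. The means were 8.89% and 0.286% ± 0.335 (SD, n = 3). The percentage was thus lower in every cKO library, while the other SMAD genes differed by far less (exact two-sided permutation p = 0.1).

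**Figure D2:**
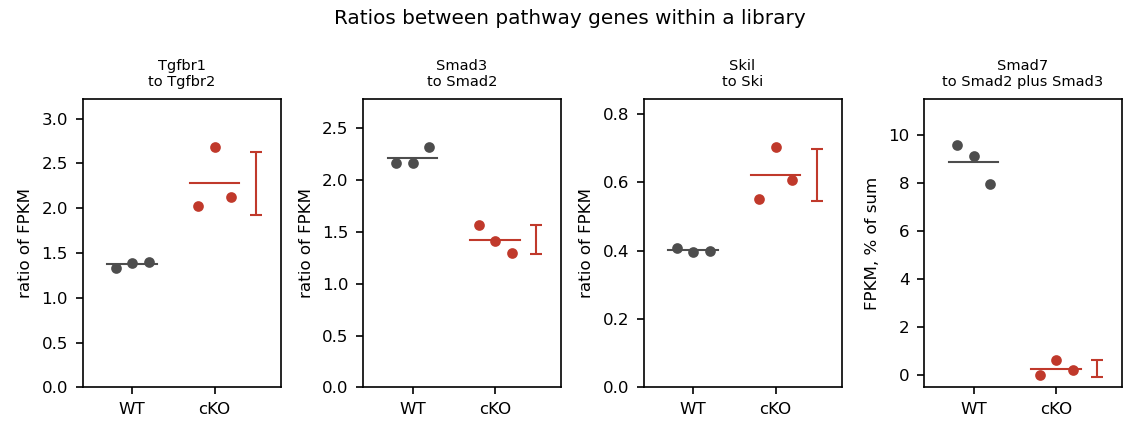
FPKM of one gene over that of another within each library, for 3 WT (grey) and 3 cKO (red) libraries, as a ratio in the first 3 panels and as a percentage in the last. Horizontal lines are means and the red bar is the mean ± SD of cKO. In each of the 4 panels the genotypes do not overlap, as with *Smad3* over *Smad2* at 2.17 to 2.32 in WT and 1.30 to 1.57 in cKO.

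The corepressor genes *Ski* and *Skil* were both lower in cKO. *Ski* (chr4:155154075-155222592, minus strand) stood at 22.2, 22.2 and 21.9 FPKM in WT and at 9.22, 10.3 and 9.99 FPKM in cKO. The replicates were close together in both genotypes and far apart between them. The cKO mean of 9.85 ± 0.575 FPKM (SD, n = 3) was 44.6% of the WT mean, with a log2 fold change of -1.09 (SE 0.064, limma adjusted p = 8.8e-05). With WT counted as 1 sample the adjusted p for *Ski* was 0.029, and correcting for GC content and length gave a log2 fold change of -0.56 (limma adjusted p = 0.0014).

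*Skil* (chr3:31095058-31122577, plus strand), whose product SnoN is degraded when the pathway is active, gave 9.01, 8.80 and 8.78 FPKM in WT and 5.09, 7.28 and 6.08 FPKM in cKO. All cKO values were below WT, with a wider spread than *Ski* and a mean of 6.15 ± 1.10 FPKM (SD, n = 3). The log2 fold change of *Skil* was -0.48 (SE 0.11, limma adjusted p = 0.0076), and the adjusted p was 0.14 with WT counted as 1 sample. The ratio of *Skil* to *Ski* was 0.407, 0.397 and 0.400 in WT and 0.552, 0.704 and 0.608 in cKO, a difference of 0.62 in the log2 ratio (exact two-sided permutation p = 0.1). Once GC content and length were corrected for, that difference was 0.028.

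The GC content of the longest annotated transcript was highest in *Smad7* (56.9%), *Ski* (55.6%) and *Smad3* (53.1%), and lowest in *Tgfbr1* (41.0%) and *Skil* (41.0%). The correction for GC content and length made the log2 differences of *Smad7* (-1.64 to -1.12), *Ski* (-1.09 to -0.56) and *Tgfbr2* (-0.57 to -0.35) smaller, and that of *Smad3* went to 0.02. That of *Tgfb1*, at 52.5% GC, stayed at -0.86. With *Smad7* set aside, 1 of the 8 genes was then called higher and 4 lower, where 29.9% and 27.2% of all genes tested were (57.1% in either direction).

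The scaling of the libraries also moved these values. FPKM totals were 521296 to 531517 in WT and 701396 to 850548 in cKO. With each library scaled to the same total, the median over all genes moved from 0.039 to -0.45, and the split of calls moved from 3693 higher and 3073 lower to 903 higher and 6182 lower. Under that scaling each of the 9 genes had a negative log2 fold change and none was called higher, and the log2 fold change of *Tgfbr1* was -0.45, close to that median.

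**Figure D3:**
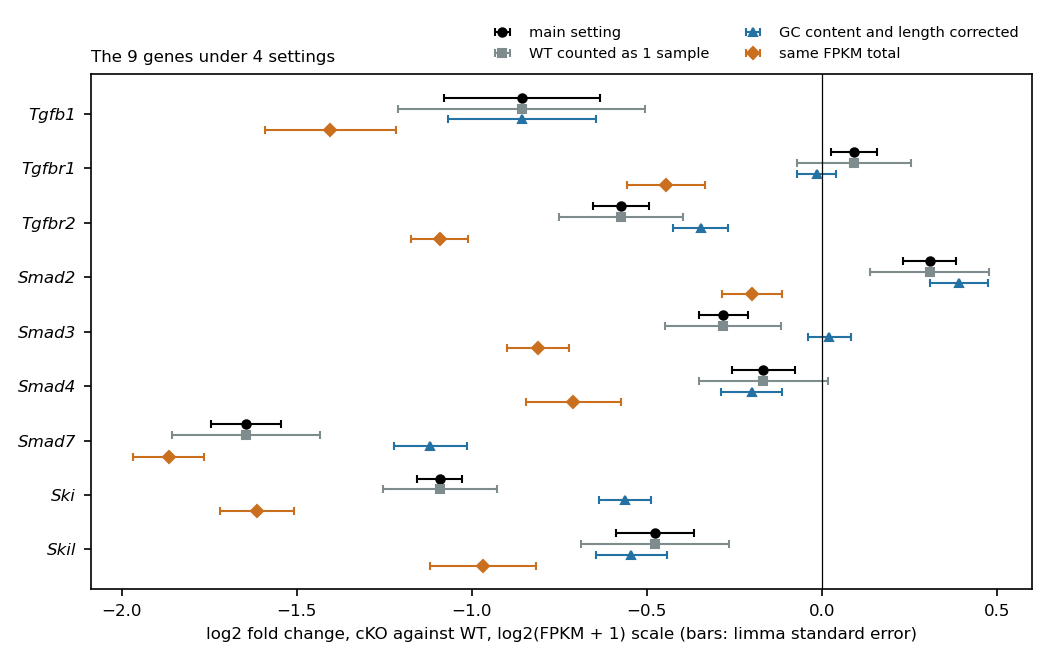
Log2 fold changes of the 9 genes on the log2(FPKM + 1) scale (horizontal axis, cKO against WT) in the test as reported and under 3 alternatives, with bars of 1 limma standard error. *Smad7*, *Ski*, *Tgfb1*, *Tgfbr2*, *Skil* and *Smad4* lie below 0 under all 4 settings, whereas *Smad2*, *Tgfbr1* and *Smad3* each cross 0 under at least one of the alternatives.

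Because *Ski* and *Tgfbr2* fell with little spread between replicates, the sequences just before their start sites are shown. RefSeq windows (GRCm38.p6), of which only the bases upstream of both the RefSeq and the GENCODE start were used, were found for 5 of the 9 genes (*Tgfb1*, *Tgfbr1*, *Tgfbr2*, *Smad3* and *Ski*). Capitals mark the SMAD-binding box CAGAC and the GC box GGGCGG, the site of SP1-type factors, each searched on both strands (as GTCTG and CCGCCC on the other) with overlaps allowed. The *Ski* window spans chr4:155222593-155222785 and that of *Tgfbr2* spans chr9:116175364-116175613, both on the minus strand and written 5′ to 3′.
Ski: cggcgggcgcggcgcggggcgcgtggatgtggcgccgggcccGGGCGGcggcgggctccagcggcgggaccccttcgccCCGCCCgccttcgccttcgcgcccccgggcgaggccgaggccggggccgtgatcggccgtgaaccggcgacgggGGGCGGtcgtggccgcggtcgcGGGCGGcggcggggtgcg
Tgfbr2: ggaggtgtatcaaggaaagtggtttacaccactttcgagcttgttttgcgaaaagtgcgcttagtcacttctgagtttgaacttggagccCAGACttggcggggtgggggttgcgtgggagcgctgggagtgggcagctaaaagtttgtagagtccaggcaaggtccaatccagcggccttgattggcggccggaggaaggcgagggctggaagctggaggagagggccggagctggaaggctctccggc
The *Ski* window, shortened to 193 bases by that rule, was 86.5% G or C and held 4 GC boxes and no CAGAC, whereas that of *Tgfbr2*, of 250 bases, was 58.4% G or C and held 1 CAGAC and no GC box. The windows of *Tgfb1*, *Smad3* and *Tgfbr1* held 5, 2 and 2 GC boxes and no CAGAC. Of 32851 such windows of 250 bases over all genes, 42.2% held CAGAC and 32.7% held a GC box, so that neither motif is uncommon. The palindrome GTCTAGAC, which holds AGAC on both strands and is another known SMAD site, was in none of the 5 windows and in 0.167% of all windows. A match is a description of the letters and not a bound site.

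Other components of the pathway were taken from 7 lists holding 80 genes between them, of which 55 were tested. In cKO 23 of the 55 were lower, 8 were higher and 24 did not pass the limma test, with a median log2 fold change of -0.16. Fewer of these 55 genes were called with WT counted as 1 sample, a setting that also called fewer of all genes tested. The shares called lower and higher may be read against 29.8% and 35.8% of all genes tested. *Eng* and *Itgae*, which are among the lower genes, passed the filter only through their WT libraries. Lower was thus the one direction open to them, and their values are given with no p. Where 1 FPKM was required in all 6 libraries, which leaves both out, 22 of 52 genes were lower and 8 higher. Of all such genes 28.0% were lower and 37.8% higher. With libraries scaled to the same FPKM total the split of the 55 was 1 higher and 47 lower.

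Among genes of ligand production and activation, 1 of 3 tested was lower. That gene was *Furin*, the protease that cleaves the TGF-β precursor. It stood at 18.0, 16.8 and 15.9 FPKM in WT and at 4.62, 5.37 and 5.04 FPKM in cKO, with no overlap and a log2 fold change of -1.58 (limma adjusted p = 7.9e-05). *Nrros*, which tethers latent TGF-β1 and was the most abundant of this list, gave 27.6, 27.7 and 27.3 FPKM in WT and 24.6, 28.1 and 23.5 FPKM in cKO, which overlapped.

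Of 7 tested receptors of the wider family, 3 were lower, *Eng* among them, and none was higher. The coreceptor *Eng* stood at 3.13, 3.33 and 3.61 FPKM in WT and at 0.976, 0.438 and 0.596 FPKM in cKO, a log2 fold change of -1.39, where the filter allowed no other direction. The activin receptor *Acvr1b*, the most abundant of these receptors, had 7.98, 8.22 and 8.15 FPKM in WT and 3.81, 5.72 and 4.15 FPKM in cKO (log2 fold change -0.73, limma adjusted p = 0.0020). Another was the coreceptor *Tgfbr3* at -0.55, named after its value was seen. Neither *Acvr1b* nor *Tgfbr3* was called with WT counted as 1 sample. Of the remaining SMADs *Smad1*, of the BMP branch, was lower by the test (log2 fold change -0.33, limma adjusted p = 0.028). *Smad1* was not called with WT counted as 1 sample, nor with GC content and length corrected for (-0.25, limma adjusted p = 0.078). *Smad5* gave 15.0, 15.0 and 14.8 FPKM in WT and 10.3, 14.7 and 11.5 FPKM in cKO and did not pass (limma adjusted p = 0.061). *Smad6*, the other inhibitory SMAD, was not tested, at 0.0519 to 0.0858 FPKM in WT and listed at 0 in each cKO library.

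Regulators of the receptors and SMADs were mixed, with 4 of 19 higher, 7 lower and 8 not called. The 4 higher genes, named after their values were seen, were the deubiquitinases *Uchl5* (log2 fold change 1.00, just under 1 before rounding), *Usp9x* (0.42) and *Usp15* (0.22) and the receptor-associated *Strap* (0.37). *Uchl5* stood at 37.5, 37.9 and 37.8 FPKM in WT and at 78.0, 60.7 and 93.7 FPKM in cKO, and its log2 fold change was 0.42 with GC content and length corrected for. *Strap* was no longer called with that correction (0.078) or under quantile normalization (0.12), and with the same FPKM total *Strap* (-0.19), *Usp9x* (-0.12) and *Usp15* (-0.30) all changed sign. The most abundant gene of this list, *Fkbp1a*, whose product binds the type I receptor, overlapped at 135 to 138 FPKM in WT and 118 to 137 FPKM in cKO.

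Of 12 nuclear partners of SMADs, 7 were lower and 1 was higher. The corepressor gene *Tgif2* gave 7.88, 8.16 and 7.58 FPKM in WT and 3.00, 4.35 and 2.77 FPKM in cKO (log2 fold change -1.04, limma adjusted p = 0.00065). *Runx3*, a transcription factor of the CD8 lineage that binds SMADs, fell from 5.05, 5.32 and 4.96 FPKM to 2.13, 1.73 and 1.53 FPKM (log2 fold change -1.13, limma adjusted p = 0.00019). The one higher gene was the deacetylase *Hdac1*, the most abundant of the list, at 146 to 149 FPKM in WT and 208 to 241 FPKM in cKO (log2 fold change 0.58). It was not called under quantile normalization (0.094, limma adjusted p = 0.13) or with the same FPKM total (0.026, limma adjusted p = 0.74). In the non-SMAD branch *Tab1* (0.26) and *Traf6* (0.27) were higher and *Tab2* (-0.31) was lower among 5 tested. In the test as reported these log2 fold changes were small beside those of *Ski* and *Smad7*. With GC content and length corrected for, that of *Tab1* was 0.71, larger in size than that of *Ski* (-0.56). With the same FPKM total *Tab1* and *Traf6* were both at -0.28.

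Among 10 tested genes known to respond to TGF-β, 5 were lower, *Itgae* among them, 1 was higher and 4 did not pass. *Il7r*, the interleukin-7 receptor, stood at 5.86, 6.00 and 5.90 FPKM in WT and at 1.22, 1.22 and 1.06 FPKM in cKO (log2 fold change -1.67, limma adjusted p = 4.8e-05). *Itgae*, which encodes the CD103 integrin chain induced by TGF-β in CD8 cells, gave 2.05, 2.45 and 2.25 FPKM in WT and 0.413, 0.171 and 0.329 FPKM in cKO (log2 fold change -1.32, again with one direction open). The other lower genes, named after their values were seen, were *Pmepa1* (-0.75), *Tgif1* (-0.72) and *Myc* (-0.61). The higher one was the cell cycle inhibitor *Cdkn1a* (0.60), not called with the same FPKM total (0.24, limma adjusted p = 0.11). None of *Pmepa1*, *Tgif1*, *Myc* and *Cdkn1a* was called with WT counted as 1 sample. The *Cdkn1a* value is of RNA, whereas the study's western blot showed less of its protein, p21, in cKO thymocytes. *Id3*, the most abundant gene of this list, was at 123 to 128 FPKM in WT and 102 to 148 FPKM in cKO. The direction in which *Il7r* and *Itgae* respond to TGF-β in DP thymocytes, and any part of TGF-β in these values, was not tested.

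**Figure D4:**
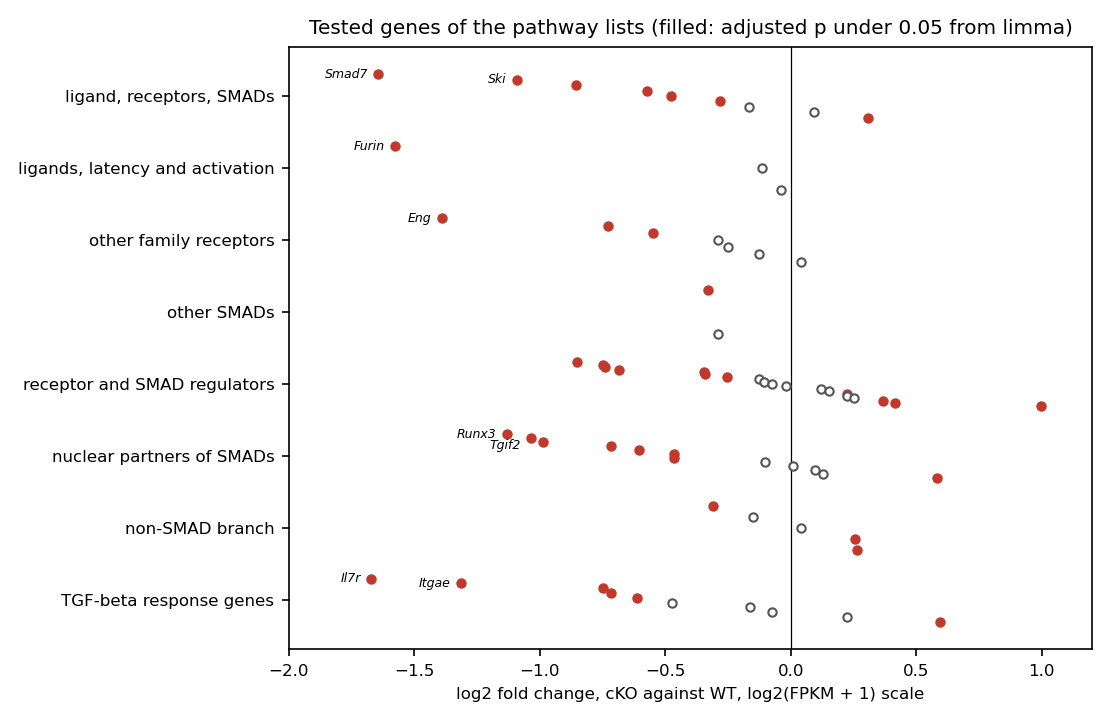
Log2 fold change (horizontal axis, log2(FPKM + 1) scale, cKO against WT) of the tested genes, one row per list, where a filled point passed the limma test at an adjusted p under 0.05 and an open point did not. Names are given where the change was at least 1 on the log2 scale. *Smad7*, *Eng* and *Itgae* passed the filter only through WT. The names lie on the left, from *Il7r* at -1.67 to *Tgif2* at -1.04.

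Other cell types were looked for by their markers, since a sort can let other cells through. All 9 DP markers passed the filter, 7 higher and 2 lower in cKO, with *Cd8a* at 680 to 688 FPKM in WT and 1003 to 1163 FPKM in cKO. Quantile normalization turned that split into 4 lower against 1 higher, and the same FPKM total gave 2 each way. The log2 fold change of *Cd8a* went from 0.68 to -0.04 and 0.12. Of 9 markers reported for mature single-positive thymocytes 7 were lower and 2 were not called, with a median log2 fold change of -1.74. *Ccr7* stood at 15.1 to 16.2 FPKM in WT and 1.16 to 2.50 FPKM in cKO, and *S1pr1* at 4.11 to 4.79 and 0.133 to 0.203 FPKM. The summed level of these 9 genes was 108 to 109 FPKM in WT and 39.5 to 41.8 FPKM in cKO. None of the 9 was listed at 0 in any library, and *S1pr1* and *Slfn1* passed the filter only through WT. These markers, of which *Il7r* is one, moved with *Smad7*, *Ski*, *Tgfbr2* and *Itgae*, and their part in those results was not tested. In bulk RNA, fewer cells of a type and less RNA per cell cannot be told apart. Regulatory T cell markers gave 3 lower and 2 not called of 5 tested, with *Foxp3* at 0.315 to 0.346 FPKM in WT and 0 to 0.114 FPKM in cKO. Of 8 proliferation markers 8 were higher, and their part in the values of the 9 genes was likewise not tested. Thymic epithelial *Foxn1*, *Krt5* and *Krt14* were listed at 0 in every library, while *Epcam* (3.44 to 3.71 FPKM in WT, 1.88 to 3.59 in cKO) and *Ccl25* (1.90 to 2.81 and 2.18 to 3.23 FPKM) were measured and not called. Of mesenchymal and endothelial markers *Col3a1* was at 0 throughout, and *Pecam1*, the 1 gene tested, was higher (43.3 to 45.4 FPKM in WT, 49.7 to 54.8 in cKO). Its log2 fold change was 0.057 under quantile normalization (limma adjusted p = 0.37) and -0.32 with the same FPKM total. All others of that list were below 1 FPKM in every library, the highest being *Pdgfrb* (0.345 to 0.650 FPKM in WT, 0.205 to 0.318 in cKO). Whether the *Pecam1* RNA came from endothelial cells was not tested. Of 4 early thymocyte markers tested 3 were lower, neither of 2 myeloid markers was called, and the B cell marker *Cd79b* was higher (21.5 to 23.0 FPKM in WT, 25.6 to 38.3 in cKO). The erythroid *Hba-a1*, which passed the filter only through cKO, lay at 0.416 to 1.00 FPKM in WT and 3.27 to 10.4 FPKM in cKO. The part of these markers in the values of the 9 genes was not tested.

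The genes whose log2(FPKM + 1) followed *Smad7* most closely over the 6 libraries were *H2-K1* (r = 0.9996), *Tdrp* (0.9996) and *Itgb3* (0.9994). *H2-K1*, a class I histocompatibility gene, stood at 79.5, 81.0 and 75.1 FPKM in WT and at 29.6, 33.1 and 30.5 FPKM in cKO. Those closest to *Smad2* were *Txnl1* (r = 0.9991), *Klhl22* (0.9979) and *Mrpl14* (0.9977). All 6 libraries fall into 2 genotype groups, so a high r is common, with 313 genes above 0.99 for *Smad7* and 85 for *Smad2*.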

How the data were processed

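Poly(A) RNA of sorted DP thymocytes (NEBNext Ultra II Directional kit) was sequenced by the authors, who deposited 1 FPKM value per gene and library. Reads were mapped with TopHat to mm10, and gene levels were computed with Cufflinks, per the study's methods. Neither versions, nor the annotation, nor how strand was handled are given in the sources used here. FPKM are not counts, so no count test was run. Libraries were divided by median-ratio size factors of 1.00 to 1.01, log2(FPKM + 1) was taken, and genes at 1 FPKM or more in at least 3 libraries (10326) were tested with limma 3.58.1 (R 4.3.3, moderated with a mean trend, Benjamini-Hochberg). The procedure was tested on simulated data. Ratios between genes were compared as log2 ratios by an exact permutation test (scipy 1.17.1), that of *Smad7* as a percentage because 1 library was listed at 0. Depth was estimated from the smallest FPKM steps of genes with a single transcript, assuming fragments of 200 bases. Fragments per gene follow from the longest annotated transcript and are approximate.

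Of 23183 symbols 22110 matched the GENCODE M21 annotation of GRCm38 (mm10) and 663 matched through synonyms. Coordinates are of that build. GC content and transcript length were corrected in each library by natural splines (5 degrees of freedom) in 10245 genes. The 9 genes, the pathway and marker lists and the tests were chosen with earlier results of these data known. One gene of the mature single-positive marker list is not reported here and was left out of that list's counts. Named pathway genes were those called with a log2 change of at least 1, at most 4 each way per list, and the most abundant of each list, with exceptions marked. Replicates were numbered by the labels. The alternatives were other scalings, pseudocounts and filters, limma without the trend or with array weights, the replicate block, WT counted as 1 sample, and leaving out each library.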

Additional observations from a re-analysis of the deposited data

How the results depend on the processing

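*Ski* stayed lower in every alternative run and past the test in all but WT counted as 1 sample with the correction for GC content and length, an alternative chosen after seeing the data. *Smad7* had a negative value wherever it was fitted. Where the filter at 3 libraries was used it passed through WT alone. Its calls in the counts that follow therefore had lower as their one open direction. Of the 9 genes, *Smad7* included, 7 were called in the test as reported, 6 to 8 on leaving out a library (lowest without WT replicate 3, where *Smad3* was lost, highest without cKO replicate 2, where *Smad4* was gained), 2 with WT counted as 1 sample and 0 with that and the GC and length correction. Of the 55 other pathway genes 31 were called, 27 to 41 on leaving out a library, 10 with WT counted as 1 sample, 1 with that and the correction, and 48 (1 higher, 47 lower) with libraries scaled to the same FPKM total. Over all genes 6766 were called, 1645 with WT counted as 1 sample and 26 of 10245 with the correction as well.

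Some log2 fold changes changed sign. With the same FPKM total, *Tgfbr1* was at -0.45 and *Smad2* at -0.20. With the correction for GC content and length, *Tgfbr1* was at -0.015 and *Smad3* at 0.021, with WT as 3 samples or as 1. The causes were not tested.

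The same correction moved the differences in ratio to 0.38 for *Tgfbr1* over *Tgfbr2*, -0.42 for *Smad3* over *Smad2*, 0.028 for *Skil* over *Ski* and -7.71 percentage points for *Smad7*. A pseudocount of 1 moved the last to -7.84. On leaving out a library these differences ran from 0.59 to 0.80, from -0.71 to -0.57, from 0.53 to 0.70 and from -9.06 to -8.25. *Smad7* has no value where 1 FPKM was required in all 6 libraries.

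The replicate numbers did not pair the libraries: same-numbered deviations correlated at -0.022, 0.039 and 0.031. With the replicate number as a block 7 of the 9 genes, *Smad7* included, and 30 of the 55 others were called. Of all 10326 genes tested 6467 were called with that block, and 5589 to 7654 on leaving out a library. Depth limits the values of *Smad7* and *Smad6* in cKO.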
